A study of Homo sapiens with 3 samples.

Results

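The genes for the protein subunits of the mitochondrial ribosome were examined in RNA-seq libraries of HEK293T, an established line from human embryonic kidney that expresses a viral T antigen. Members were the protein-coding genes of GENCODE release 44 whose symbol is MRPL or MRPS followed by a number and, for some, a letter from A to C. The rule gave 78 genes of the 61193 with a listed transcript, 49 named for the large subunit and 29 for the small one. The series held 3 replicates of 1 condition with no treatment named, cells collected 24 h after seeding, so no conditions were compared and no test was made. The libraries held 6262175 to 8521624 counts, and transcripts of the mitochondrial genome took 9.59%, 5.70% and 25.8% of the counts in replicates 1, 2 and 3. Of the 10 marker genes looked up, 5 or 6 had a count in each library. Of the genes chosen as markers of the line, the kidney factor PAX2 had 42, 59 and 54 counts and KRT18 had 0. KRT8 had 17, 8 and 27 counts and LHX1 had 5, 4 and 6. EYA1 had 5, 1 and 8 counts and VIM had 0, 6 and 5. Among genes of other cell types, the blood gene PTPRC and the liver gene ALB had 0. The fibroblast genes differed, with 0 for COL1A2 and 747, 632 and 1129 for COL1A1. Further listed transcripts covered all of the last 300 exonic bases of PAX2, KRT8, EYA1 and VIM, and all but 2% in KRT18. In LHX1, COL1A1 and COL1A2 these bases had no such cover. Over protein-coding genes such cover went with low counts, so a low count does not show that a gene is silent.

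The mitochondrial ribosome makes the proteins that the mitochondrial genome encodes, all of them parts of the oxidative phosphorylation system. Its rRNAs come from the mitochondrial genome, whereas all of its proteins are encoded in the nucleus, made in the cytosol and imported. Part of these proteins descend from those of the bacterial ribosome, and the others are particular to mitochondria. Nearly every protein is present once in a ribosome, with the stalk protein MRPL12 as the known exception.

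Each library was built with a QuantSeq 3′ mRNA kit, in which the reads come from near the 3′ end of an mRNA. Counts per transcript were summed per gene, and TPM is the count divided by transcript length and scaled so that each library sums to the same total. Levels of different genes are given in TPM, and counts or CPM (counts scaled by the library total alone) are given beside them, since reads from 3′ ends do not grow in number with length. A gene was called expressed at a mean TPM of at least 1. Expressed genes at or above the third quartile (24.1 TPM) were called high, and those at or below the first quartile (2.40 TPM) were called low.

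Promoters of 4 members are shown first, because they hold the short sequence motifs that were more frequent among the members than among all promoters. Each line gives 250 bases before and 30 bases after the RefSeq start site on GRCh38.p14, read along the strand of the gene. Capitals mark the ETS motif CCGGAAG, or CTTCCGG on the other strand, and the YY1 motif AAGATGG. MRPL16 (chr11:59810749-59811028, minus strand) and MRPS26 (chr20:3045802-3046081, plus strand) are the members of each subunit with the highest TPM that hold an ETS motif, and MRPL51 (chr12:6493233-6493512, minus strand) and MRPS10 (chr6:42217832-42218111, minus strand) are those with the highest TPM that hold both, a choice made after values were seen.
MRPL16: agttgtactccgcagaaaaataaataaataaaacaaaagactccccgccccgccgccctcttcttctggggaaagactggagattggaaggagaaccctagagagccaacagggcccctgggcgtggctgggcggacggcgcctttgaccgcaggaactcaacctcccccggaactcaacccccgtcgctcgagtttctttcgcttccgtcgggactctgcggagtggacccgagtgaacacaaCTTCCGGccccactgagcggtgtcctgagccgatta
MRPS26: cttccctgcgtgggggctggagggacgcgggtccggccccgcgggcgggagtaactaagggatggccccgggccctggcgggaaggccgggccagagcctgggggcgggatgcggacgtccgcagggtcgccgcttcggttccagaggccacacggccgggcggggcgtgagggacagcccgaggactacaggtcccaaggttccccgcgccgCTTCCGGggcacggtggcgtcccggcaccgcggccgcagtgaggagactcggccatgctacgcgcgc
MRPL51: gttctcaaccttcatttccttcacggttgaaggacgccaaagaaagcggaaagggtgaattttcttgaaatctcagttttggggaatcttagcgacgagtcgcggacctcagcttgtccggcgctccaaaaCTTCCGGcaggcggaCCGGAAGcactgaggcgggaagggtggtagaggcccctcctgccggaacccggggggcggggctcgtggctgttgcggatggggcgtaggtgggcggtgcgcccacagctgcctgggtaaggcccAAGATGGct
MRPS10: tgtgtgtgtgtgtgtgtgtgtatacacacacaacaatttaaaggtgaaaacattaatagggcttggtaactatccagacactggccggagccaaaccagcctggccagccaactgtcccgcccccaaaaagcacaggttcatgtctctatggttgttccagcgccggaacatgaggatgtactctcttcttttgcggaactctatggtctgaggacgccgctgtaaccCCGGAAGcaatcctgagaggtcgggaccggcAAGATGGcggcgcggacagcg

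The members did not form a set of even levels. Of the 78 members, 44 were expressed, 24 of the large subunit and 20 of the small one, or 56.4% against 38.2% of the 19926 protein-coding genes. The high category held 24 members, 14 of the large and 10 of the small subunit, or 30.8% against 12.5% of protein-coding genes. At the other end, 28 members, 20 of the large and 8 of the small subunit, had at most 3 counts in every replicate, or 35.9% against 50.9% of protein-coding genes, and 18 of these had no count in any library, or 23.1% of the members against 36.5% of protein-coding genes. A count of 0 allows up to 3 counts, or 0.352 to 0.479 CPM in these libraries. The expressed members spanned a range of 2234-fold in mean TPM.

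The median member had 2.88 TPM, against 0.195 TPM for protein-coding genes. For the large subunit the median was 0.850 ± 0.625 TPM and for the small subunit 10.1 ± 3.90 TPM (SD of the median over replicates, n = 3), so that the SD of the large subunit median was nearly as large as the median itself. The order of the subunits turned when only members whose 3′ end lies in a single listed transcript were kept, with medians of 90.3 TPM in the large and 34.3 TPM in the small subunit. Together the members took 0.751%, 0.808% and 0.554% of the counts in replicates 1, 2 and 3. The summed TPM of the large subunit was 3.42, 3.23 and 3.48 times that of the small subunit, a mean of 3.38 ± 0.13 (SD, n = 3), and the ratio of summed counts was 2.05 ± 0.02. These sums cover 49 and 29 genes, and the ratio of mean TPM per gene was 2.00 ± 0.08. Without MRPL41 the TPM ratio was 2.19. A few genes made up these sums, since the 5 highest members held 81.5% of the TPM of the large subunit and 83.8% of that of the small subunit.

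**Figure D1:**
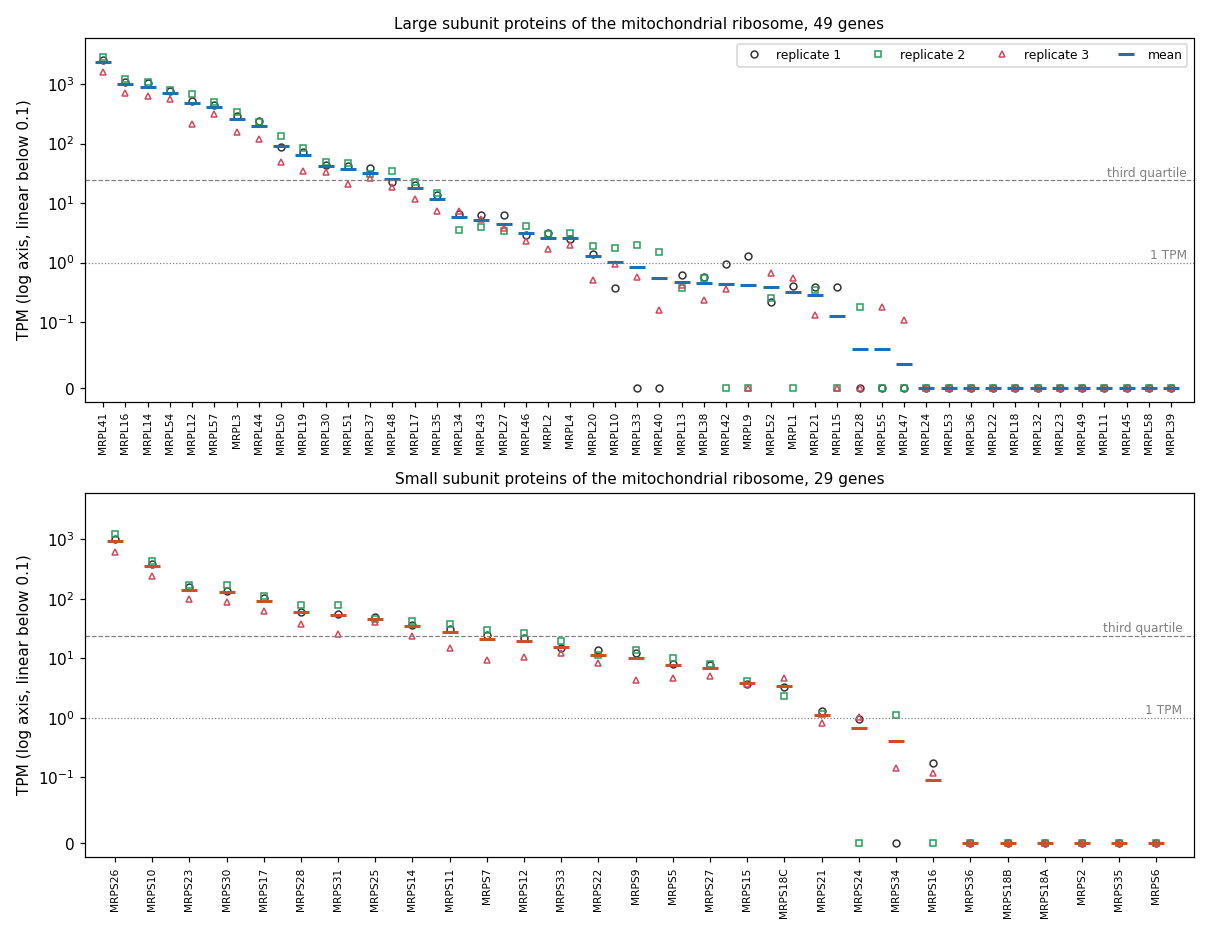
TPM of each member in each replicate (open symbols) and the mean (bars), ordered by mean, for the large subunit (top) and the small subunit (bottom); the vertical axis is logarithmic and linear below 0.1. Levels fall from MRPL41 and MRPS26 down to 12 large subunit and 6 small subunit members at 0, and replicate 3 (triangles) lies lowest for most of the members above 24.1 TPM.

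Among the large subunit members, MRPL41 had the highest level. It encodes a subunit particular to mitochondria, lies at chr9:137551879-137552555 on the plus strand and has 1 listed transcript. MRPL41 had 6738, 6272 and 6158 counts, which gave 2551, 2811 and 1586 TPM, and alone it held 34.8% of the TPM of the large subunit. MRPL16, a protein of bacterial descent that lies near the peptidyl transferase centre, had 5310, 5094 and 5106 counts, or 1081, 1227 and 707 TPM. The lowest replicate of MRPL41 was above the highest of MRPL16.

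MRPL14, a protein of bacterial descent at the face where the subunits meet, had 1029, 1072 and 623 TPM. MRPL54, particular to mitochondria, had 765, 807 and 568 TPM. MRPL12, the stalk protein that recruits translation factors, had 528, 684 and 215 TPM. Among the 10 highest large subunit members, only the step from MRPL41 to MRPL16 had no overlap between ranges over replicates. Such overlap sets different libraries against each other, and replicate 3 was lower in TPM for most genes. Within each replicate MRPL16 stood above MRPL14, MRPL14 above MRPL54 and MRPL54 above MRPL12. Between the orders in TPM and in CPM the Spearman coefficient was 0.99 over the 49 genes. It is a description in which both scales share the same counts and 12 genes tie at 0. Near the top the order did change. In CPM MRPL57 had rank 3 and MRPL19 rank 5, in place of ranks 6 and 10 in TPM. MRPL54 had rank 8 in place of 4, and MRPL12 rank 6 in place of 5.

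MRPS26, a small subunit protein particular to mitochondria, was the highest member of its subunit with 4671, 4712 and 4075 counts, or 1013, 1210 and 601 TPM, and held 47.5% of the TPM of the small subunit. MRPS10, of bacterial descent, had 384, 436 and 245 TPM. MRPS23, particular to mitochondria, had 155, 168 and 97.2 TPM. The steps from MRPS26 to MRPS10 and from MRPS10 to MRPS23 had no overlap between ranges over replicates. The other 7 steps among the 10 highest small subunit members did. Within replicates 1 and 3 MRPS23 stood above MRPS30, and within replicate 2 it stood slightly below. MRPS30 stood above MRPS17 within each replicate.

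Below them stood MRPS30 with 134, 169 and 86.5 TPM and MRPS17, of bacterial descent, with 103, 113 and 61.5 TPM. MRPS30 is named for the small subunit but sits in the large one in structures of the human ribosome. When MRPS30 and MRPS18A were counted in the large subunit and MRPS36 was left out, the ratio of summed levels was 3.66 in place of 3.36, both from mean TPM. The mean TPM of proteins of bacterial descent had a median of 0.662 over 30 large subunit genes and 5.70 over 18 small subunit genes. For those particular to mitochondria the medians were 3.14 over 19 and 15.4 over 11 genes.

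The members with no count in any replicate included subunits with central roles. In the large subunit these were MRPL11 at the base of the stalk, MRPL22, MRPL23 and MRPL24 around the exit tunnel, MRPL45, which holds the ribosome at the inner membrane, MRPL58, a peptidyl-tRNA hydrolase that rescues stalled ribosomes, and MRPL18, MRPL32, MRPL36, MRPL39, MRPL49 and MRPL53. In the small subunit they were MRPS2, MRPS6, MRPS18A, MRPS18B, MRPS35 and MRPS36. A further 10 members had 1 to 3 counts in at least 1 replicate and none above 3: MRPL1, MRPL9, MRPL13, MRPL15, MRPL28, MRPL42, MRPL47 and MRPL55, and MRPS16 and MRPS34. In 24 of these 28 members, under 3% of the last 300 exonic bases lay outside further listed transcripts of the same strand. The others were MRPL15, MRPL47, MRPS18A and MRPS36. Such cover went with low counts over protein-coding genes, so the counts do not show that the 24 genes are silent. Whether any of the 28 is transcribed was not tested. MRPS36 is now known as a subunit of the 2-oxoglutarate dehydrogenase complex and not as a ribosomal protein.

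The level of a member moved with whether other listed transcripts lie over its 3′ end. For each gene the canonical transcript was followed back over 300 exonic bases from its 3′ end. Where it is not listed, as for MRPS22 alone among the members, the longest listed transcript was used. The share of these bases that lie in no further transcript of that strand was computed. A gene was said to have a single 3′ end where this share was at least 50%. A single 3′ end was found for 28 members, 17 of the large and 11 of the small subunit, or 35.9% against 42.6% of protein-coding genes. The median CPM of these 28 was 80.5 ± 18.1, and that of the 50 members with a shared 3′ end was 0.325 ± 0.085 (SD of the median over replicates, n = 3). In mean counts the medians were 569 and 2.33.

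Of the members with a single 3′ end, 18 of 28 were in the high category (64.3%), against 6 of 50 with a shared one (12%). Over all protein-coding genes these shares were 23.7% of 8494 genes and 4.18% of 11432 genes, so the same order held there at lower levels, with median CPM of 2.85 and 0.053. Of the 32 members with no unique base in the window 19 had at most 3 counts in every replicate (59.4%), near the 62.5% of protein-coding genes with no unique base. Of the 20 members with only unique bases 15 were in the high category (75%), against 24.2% of such protein-coding genes. The Spearman coefficient between the unique share and the mean CPM was 0.62 over the 78 members and 0.32 over protein-coding genes, descriptions across genes that share libraries. How the reads on several transcripts were counted is not given in the sources used here, and its part in the result was not tested.

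**Figure D2:**
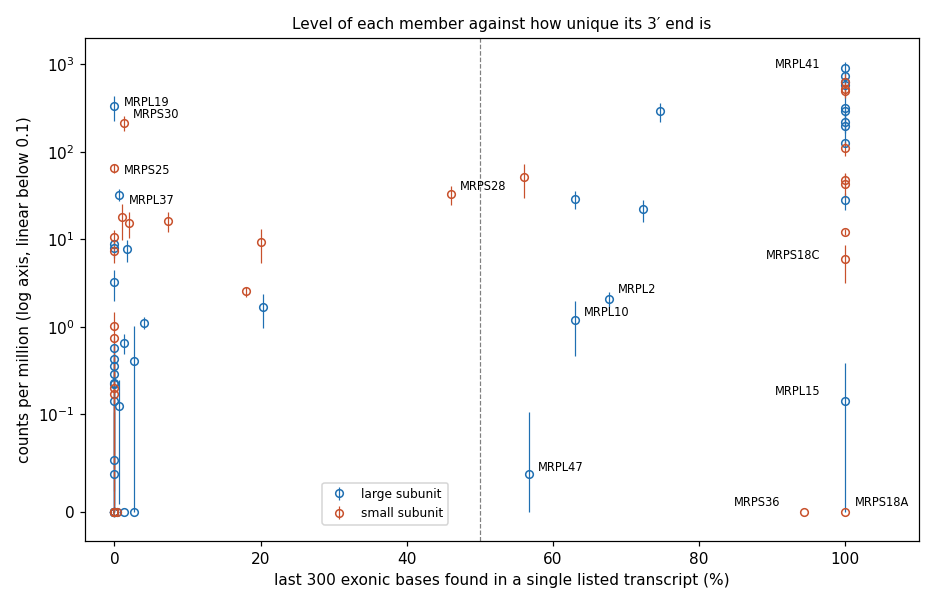
Mean CPM of each member (logarithmic axis, linear below 0.1; bars are SD over 3 replicates, cut off at 0) against the share of its last 300 exonic bases that lie in a single listed transcript. Members left of the dashed line at 50% have a median of 0.325 CPM and those right of it 80.5 CPM, with MRPL19 and MRPS30 high on the left and MRPL15, MRPS36 and MRPS18A low on the right.

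The 8 members with 1 listed transcript were all in the high category. They were MRPL41, MRPL14, MRPL12, MRPL57, MRPL44 and MRPL50 in the large and MRPS26 and MRPS10 in the small subunit, and their counts in single replicates ran from 1080 to 6738. Of protein-coding genes, 393 of the 3013 with 1 listed transcript were in the high category, and the median was 0 TPM. MRPL57, particular to mitochondria, had 4514, 4218 and 4730 counts, MRPL44, whose fold resembles ribonuclease III, had 1823, 1521 and 1329, and MRPL50 had 1310, 1738 and 1080. At the other extreme, MRPL11 has 6 listed transcripts, of which 3 share the last bases, and no count on any of them. MRPS18B has 4, of which 3 share the end, and no count either.

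**Figure D3:**
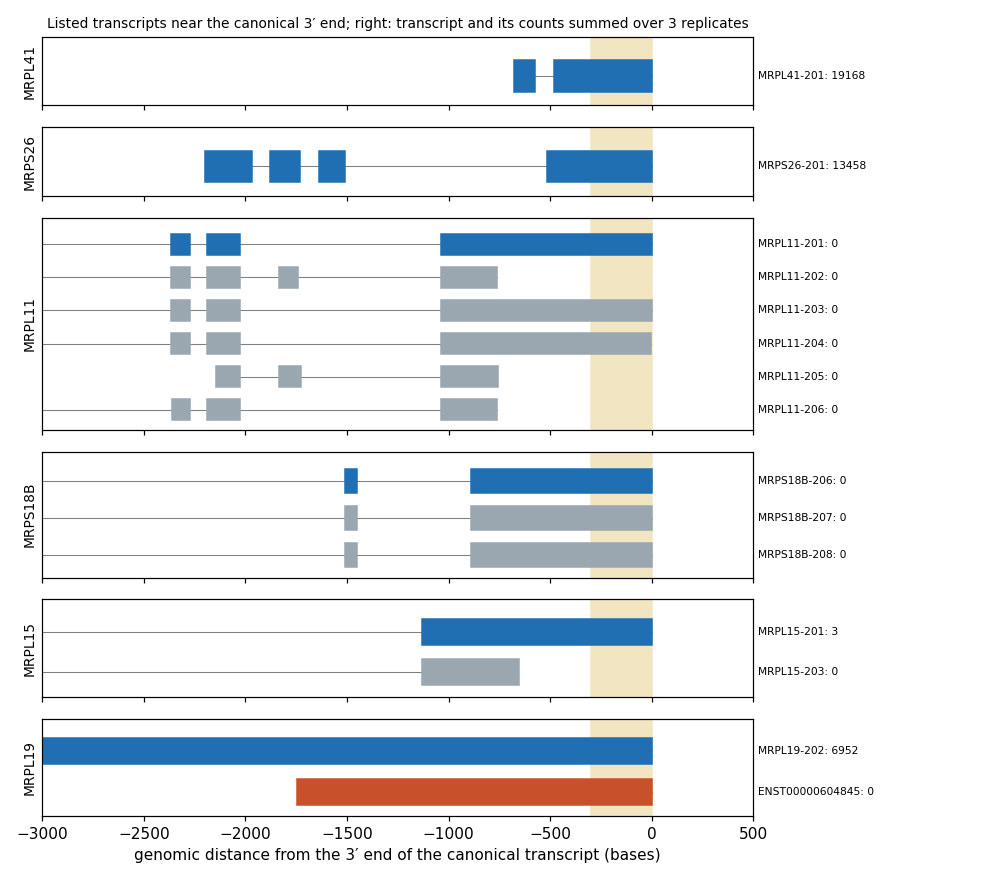
Exons (boxes) of the listed transcripts that reach the last 3000 bases before the 3′ end of the canonical transcript (blue; other transcripts of the gene gray, a transcript of another gene red), by genomic distance from that end in bases, with the last 300 bases shaded and the counts summed over 3 replicates at the right. MRPL41 and MRPS26 have a single transcript with 19168 and 13458 counts, MRPL11 and MRPS18B have several that share the end and 0 counts, and MRPL15 and MRPL19 are exceptions with 3 and 6952 counts on the canonical transcript.

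Exceptions stood on both sides. Among the 28 members with a single 3′ end, 7 had a mean count under 50. MRPS18A (100% unique) and MRPS36 (94.3%) had no count, MRPL15 (100%) had 3, 0 and 0 counts, MRPL47 (56.7%) had 0, 0 and 1, MRPL10 at the base of the stalk (63.0%) had 3, 12 and 11, MRPL2 (67.7%) had 17, 14 and 14, and MRPS18C (100%) had 37, 22 and 76. Exons of the opposite strand covered 100% of the window in MRPS18A and MRPS18C, 41% in MRPL47, and 0% in MRPS36, MRPL15, MRPL10 and MRPL2. Members with such cover could also have many counts, as in MRPS25 (100%, mean count 468), MRPL44 (75%, 1558) and MRPS22 (100%, 77). The counting setting for strand is not given in the sources used here.

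Of the 50 members with a shared 3′ end, 14 had a mean count of at least 50. MRPL19, of bacterial descent, had 2614, 2536 and 1804 counts although its last 300 bases lie wholly under an exon of 1747 bases of a lncRNA, ENSG00000270696, which had no count. Nearly all of its counts (99.97%) were on the canonical transcript, which is 7825 bases long. MRPS30 had 1533, 1599 and 1441 counts with 1.33% of its window unique. MRPS25, of which no base of the window is unique, had 498, 425 and 482 counts. MRPS28, with 46.0% unique, had 225, 256 and 211 counts.

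The counts of a member did not always lie on the transcript that encodes the standard protein. Of 496 listed transcripts of the members 108 had a count, and 95.8% of the members' counts were on canonical transcripts, against 90.6% for protein-coding genes. Of the 60 members with any count, however, the transcript with the most counts was the canonical one in 32 and another in 28 (46.7%), near the 48.9% of 12655 protein-coding genes with any count. In 11 of these 28 it was annotated as a retained intron (39.3%, against 32.9% of such protein-coding genes), in 8 as protein-coding, in 5 as protein-coding without a defined coding sequence and in 4 as a target of nonsense-mediated decay. Among these 4 is MRPS22, whose canonical transcript is not listed and so could not have the most counts. Some of the 28 rest on at most 3 counts in every replicate, among them the retained-intron cases MRPL9, MRPL28, MRPL55 and MRPS34. Whether the transcript with the most counts is the one most used in the cells was not tested.

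MRPS30 shows the case with the most reads. MRPS30-201, which has no defined coding sequence, had 853, 862 and 791 counts, and the canonical MRPS30-202 had 680, 737 and 650. In MRPS11, of bacterial descent, the retained-intron transcript MRPS11-207 had 216, 222 and 134 counts and the canonical MRPS11-201 had 118, 110 and 103. In MRPL37, particular to mitochondria, 92.6% of the counts were on MRPL37-206, in MRPL43 all were on MRPL43-202, and in MRPL46 93.2% were on the retained-intron transcript MRPL46-203. All 45 counts that MRPS18C had on average were on a retained-intron transcript, MRPS18C-208, with 37, 22 and 76 in the replicates. MRPS12, whose protein lies at the decoding centre, had 118, 124 and 83 counts, and 97.8% of them were on MRPS12-203, which is not the canonical transcript.

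The 3 human homologs of bacterial S18 had low or no counts: MRPS18A, which sits in the large subunit, and MRPS18B had 0 in every replicate, and MRPS18C had a mean of 45. A processed pseudogene of MRPS18C, however, had more. MRPS18CP7 (chrX:53825887-53826309, plus strand) has 1 listed transcript of 423 bases, overlaps no other annotated gene and had 455, 329 and 301 counts, or 237, 203 and 107 TPM. The lowest of these was above the highest count of MRPS18C in any replicate. Of its 31-base words 30.5% occur in transcripts of MRPS18C.

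In all, 76 processed pseudogenes of members were annotated with 36 parents, 28 had a count and 4 had more than 3 counts in every replicate. Of these 4, MRPL32P2 (chrX:53807776-53808623, plus strand) had 52, 67 and 60 counts while its parent MRPL32 had none, with 6.84% of its words in the parent. MRPS36P1 had 11, 16 and 5 counts while MRPS36 had none, and 52.3% of its words occur in the parent. It lies within GRM7, on the opposite strand, and overlaps the lncRNA GRM7-AS3 on its own strand. MRPS17P1 had 4, 4 and 17 counts against 835, 775 and 732 for MRPS17. When the TPM of the pseudogenes was added to the parents, the median of the large subunit was 2.43 TPM.

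The replicates agreed on the order of the members, with Spearman coefficients of 0.95 to 0.98 between the counts of any pair of replicates over the 78 genes, and 63 members (80.8%) kept their category across all replicates, against 85.2% of protein-coding genes. The 31 members with at least 50 counts in each library had a median ratio of variance to mean of 5.86. It was taken after counts were scaled to equal nuclear totals, and counting error alone gives 1 on average. Protein-coding genes held to the same minimum of 50 counts, but not matched by level, had a median of 6.60. MRPL12 had by far the largest ratio, 220, with 2416, 2645 and 1449 counts before scaling. MRPL50 followed with 112 and MRPL19 with 102. In the small subunit the largest ratios were 50.6 for MRPS26, 37.7 for MRPS31 and 15.2 for MRPS7. The ratio grows with the count at a given relative spread, so its order is not one of relative spread. Before scaling, MRPS26 had a mean count of 4486 with an SD of 357. MRPS31 had 358 with an SD of 104, and MRPS7 had 123 with an SD of 40.3. MRPS31, particular to mitochondria, had 378, 451 and 245 counts, and MRPS7, of bacterial descent, had 140, 152 and 77.

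In TPM replicate 3 was below the mean of replicates 1 and 2 for all 31 members and for 89.3% of protein-coding genes with as many counts. The median of their log2 ratios was -0.81, against -0.57 for protein-coding genes. That library also had the highest share of mitochondrial transcripts. On counts divided by the nuclear total of each library, 24 of the 31 were still lower in replicate 3, 11 of 16 in the large and 13 of 15 in the small subunit, where 44.4% of 4678 protein-coding genes were lower. The median log2 ratio on this scale was -0.18 for the members, with a range from -0.97 (MRPS7) to 0.27 (MRPL46 and MRPL37), and 0.054 for protein-coding genes. For the 31 cytosolic ribosomal protein genes with as many counts it was 0.30, and 6 of them were lower. It was -0.02 for 34 nuclear genes picked by the first letters of respiratory chain and ATP synthase symbols, of which 18 were lower. For 6 factors of mitochondrial translation it was -0.22, and 5 were lower. For 13 assembly factors of the mitochondrial ribosome it was -0.03, and 8 were lower. For 3 proteins of this ribosome that carry other symbols it was -0.06, and 2 were lower. With 1 library on one side no test is possible, and whether a difference between cultures or between libraries gave these ratios was not tested.

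**Figure D4:**
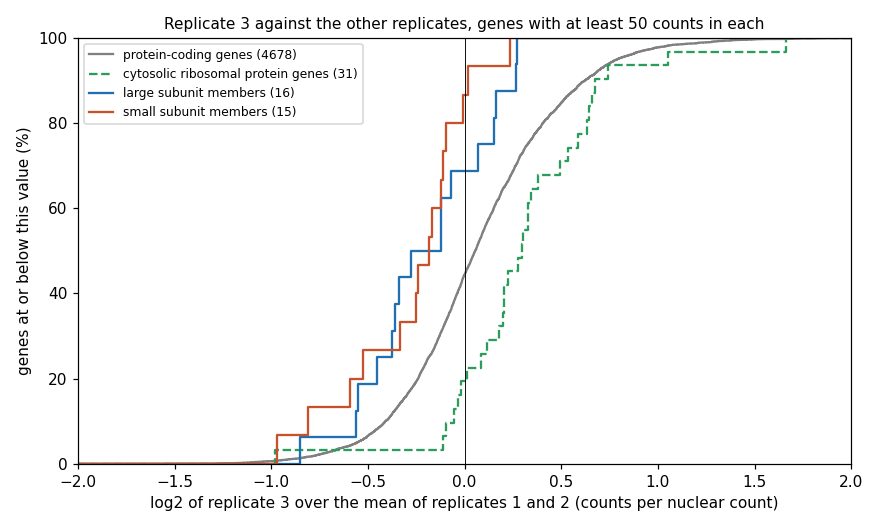
Cumulative share of genes (%) by log2 ratio of replicate 3 to the mean of replicates 1 and 2, on counts divided by the nuclear total, for genes with at least 50 counts in each library. The curves of the 16 large subunit and 15 small subunit members lie left of that of 4678 protein-coding genes, with 11 and 13 of them below 0, and the 31 cytosolic ribosomal protein genes lie right of it.

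Proteins of the mitochondrial ribosome that carry other symbols had levels from 0.070 to 886 TPM on average. GADD45GIP1, a large subunit protein also named CRIF1, has 1 listed transcript and had 7823, 7590 and 6656 counts. Its mean count was above that of every member, but its mean TPM was below those of MRPL41, MRPL16, MRPL14 and MRPS26. PTCD3, an RNA-binding protein of the small subunit, had 3887, 3427 and 3627 counts, and CHCHD1 had 175, 166 and 282. DAP3, the GTP-binding protein of the small subunit, had 18, 11 and 9 counts, and AURKAIP1 had 1, 0 and 0. The rRNAs were in the libraries as well, with 157299, 106915 and 413787 counts on MT-RNR2 of the large and 48668, 31203 and 80999 on MT-RNR1 of the small subunit. Both had the most counts in replicate 3, which was also the largest library and the one with the highest share of mitochondrial transcripts.

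Of 25 factors that assemble the mitochondrial ribosome 17 were expressed and 8 were high, with a median of 7.23 TPM. The GTPases MTG2 and NOA1 had 831, 711 and 908 and 2260, 2109 and 2838 counts, and the helicase DDX28 had 1340, 1369 and 1152. MRM1, an rRNA methyltransferase, and MPV17L2 had none. Of 15 factors of mitochondrial translation and its mRNAs 11 were expressed and 2 were high, with a median of 4.48 TPM. LETM1, an inner membrane protein that binds the ribosome, had 4183, 3879 and 3253 counts, the mRNA-binding protein LRPPRC 1726, 1441 and 1861, the elongation factor TUFM 262, 213 and 214, and the initiation factor MTIF2 none. Beside these, the 85 cytosolic ribosomal protein genes had a median of 5.53 TPM with 22 in the high category. A further 102 nuclear genes were picked by the first letters of respiratory chain and ATP synthase symbols, such as NDUFA, SDHA and UQCR. This rule did not leave out assembly factors whose symbols begin alike. These 102 genes had a median of 1.88 TPM with 20 in the high category. A single 3′ end was found for 25 of the 85 and 36 of the 102 genes. The other genes in these medians have a shared 3′ end, which went with a median of 0.053 CPM over protein-coding genes.

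Promoters were matched by symbol for 69 of the 78 members, and 9 were not in the table used. Over the 300 bases from 250 before to 50 after the start site, the ETS motif CCGGAAG was found on either strand in 29 of 69 members (42.0%), against 14.2% of 15842 promoters of protein-coding genes. The YY1 motif AAGATGG, which contains the letters ATG of a start codon, was found in 23 (33.3%), against 6.40%. Both were found in 9 of the 69 members, against 1.27% of all promoters. The large and small subunit had like shares, with 40.5% and 44.4% for ETS and 33.3% each for YY1. Of the 39 ETS matches of the members 69.2% began within 50 bases of the start site, and of the 24 YY1 matches 70.8%. Over all promoters these shares were 53.7% of 2740 and 53.1% of 1074 matches.

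The ETS match of MRPL16 printed above begins 6 bases before the start site and that of MRPS26 37 bases before it. In MRPS10 the ETS match begins 22 bases before and the YY1 match 9 bases after the start site. In MRPL51 a pair of ETS matches begin 119 and 104 bases before it and the YY1 match 21 bases after it. The median was 4.49 TPM for the 29 members with an ETS match and 3.48 TPM for the 40 without. For YY1 the medians were 0.436 TPM for 23 members with a match and 8.82 TPM for 46 without. Each group mixes members with a single and with a shared 3′ end, whose median CPM was 80.5 and 0.325. The part of the 3′ end in these medians was not tested.

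Other motifs were not more frequent among the members by such margins. The core of the NRF1 motif, CGCATGCG, was found in 3 members (4.35%) against 2.88% of all promoters, the GC box GGGCGG in 42 (60.9%) against 58.5%, and TATAAA in 2 (2.90%) against 9.63%. None of the 5 motifs contains another. Because the study concerned i-motifs, folds of cytosine-rich strands, and G-quadruplexes on the facing strand, runs of 4 tracts of C or of G with loops of 0 to 7 bases were counted as well. With tracts of at least 3 bases they were found in 12 members (17.4%) against 32.5% of all promoters, and with tracts of at least 2 bases in 66 (95.7%) against 91.2%. The median GC content was 60.3% for the members and 62.7% for all. A match is a run of letters and not evidence of a bound factor or a fold.

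**Figure D5:**
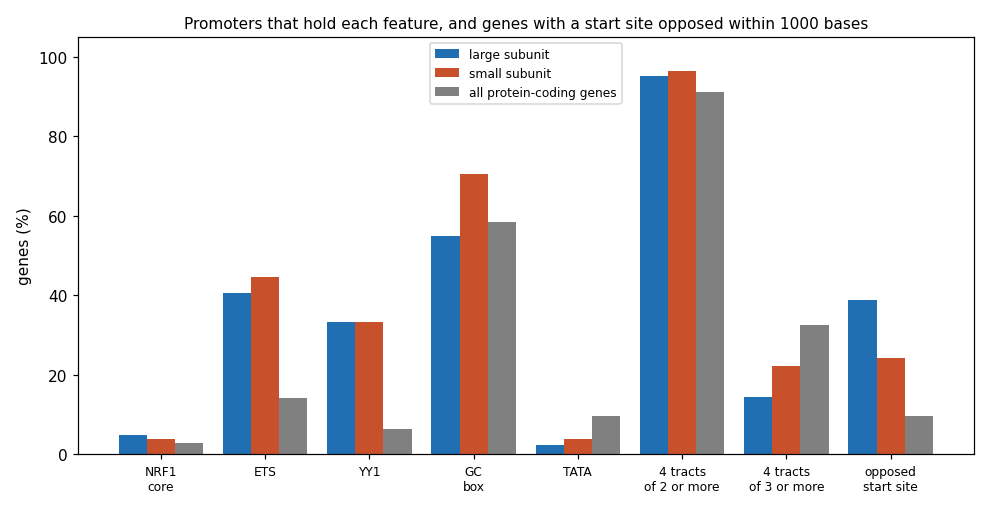
Percentage of promoters (250 bases before to 50 after the start site) of the large subunit, the small subunit and all protein-coding genes that hold each motif on either strand or 4 tracts of C or of G, and percentage of genes with a protein-coding start site on the opposite strand within 1000 bases upstream. ETS, YY1 and opposed start sites have larger shares in both subunits than in all genes, and TATA and 4 tracts of 3 or more have smaller ones.

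Members often lay head to head with another gene. In 26 of the 78 members (33.3%) a protein-coding gene on the opposite strand started within 1000 bases upstream, at a median distance of 192 bases, against 9.46% of 20046 protein-coding genes of GENCODE. The share was 38.8% in the large and 24.1% in the small subunit. In 1 pair both genes are members of different subunits: MRPS11 and MRPL46 start 320 bases apart and had 31.4, 37.4 and 14.9 TPM and 2.90, 4.19 and 2.34 TPM, with no overlap. Their promoter windows overlap, so these are not independent in the shares above. Of the last 300 exonic bases 100% were unique in MRPS11 and 0% in MRPL46. The part of the 3′ end in the difference between their levels was not tested. MRPS12 starts 181 bases from SARS2, the mitochondrial seryl-tRNA synthetase, and MRPL43 46 bases from TWNK, the mitochondrial helicase. Of the 26 members 17 were expressed, beside 56.4% of all 78 members. Of their partners 10 of 26 were, a share near the 38.2% of all protein-coding genes. Both genes were expressed in 6 of the 25 distinct pairs, and the same count was not made for other head-to-head genes.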

How the data were processed

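RNA was measured in 3 replicates of HEK293T cells, described in the study's methods as independent biological replicates. The sample labels name the material as genomic DNA, and the protocol as total RNA. The submitters' processing notes name Trimmomatic 0.38.0, HISAT2 2.2.1, featureCounts 2.2.1 and build hg38. Settings for strand and for reads on several transcripts, and the annotation release, are not given in the sources used here. The authors deposited whole-number counts per transcript for 247541 transcripts, the transcript length and other annotation columns, and the TPM made by the authors from count and length, which was recomputed from them with no difference beyond rounding.

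Transcript identifiers without version were matched to GENCODE release 44 on GRCh38 (223558 matched, 23983 not), and counts and TPM were summed per gene in Python 3.11.15 with pandas 2.3.3. Unmatched transcripts stayed in the library totals. Means and SDs are over 3 replicates. Because there was 1 condition, no test was made. Named genes were, in each subunit, the 5 highest and 5 lowest by TPM, all with at most 3 counts in every replicate, the 3 with the largest ratio of variance to mean, the 3 with most counts off the canonical transcript, the 3 pseudogenes with most counts, and a list fixed by role. MRPS17P1 was named beside them after its values were seen, as the last of 4 pseudogenes above 3 counts in every replicate. Of the 12 large and 6 small subunit members tied at 0 all were named. The members and lists were chosen with earlier results of these data known. Promoter sequences are those of RefSeq on GRCh38.p14. Alternatives were other thresholds, scales, windows and leaving out each replicate. The scripts were tested on simulated data. The limits given for counts of 0 cover counting error only.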

Additional observations from a re-analysis of the deposited data

Results flagged for a closer look

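Outside the members and their processed pseudogenes, 3 genes named after members had more than 3 counts in every replicate, above the limit that a count of 0 allows. MRPL20-DT, a lncRNA that starts opposite MRPL20, had 64, 41 and 68 counts, a mean of 57.7 ± 14.6 (SD, n = 3), while MRPL20 itself had 5, 5 and 4. MRPL45P2, annotated as a lncRNA, had 15, 14 and 20 counts, a mean of 16.3 ± 3.21, while MRPL45 had none. MRPS30-DT had 7, 13 and 19 counts, a mean of 13 ± 6, while MRPS30 had 1533, 1599 and 1441. No control samples exist to set these beside, and groups of 3 are too small for a search for outlying samples.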

How the results depend on the processing

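With 1 condition there was no call to lose, and values are compared by the spread over replicates. No paired analysis was possible because the samples form 1 group. With every level above 0 counted as expressed, 37 large subunit members were expressed in place of 24, and 17 small subunit members were high in place of 10. With canonical transcripts only, the median fell to 0 TPM in the large and 1.75 TPM in the small subunit, the ratio of summed levels was 3.62, and 44 members had at most 3 counts in every replicate in place of 28. In CPM the large subunit held 0.473% of the library in place of 0.665%, and the ratio was 2.05 in place of 3.36. With the mitochondrial genome left out the subunits held 0.908% and 0.269%. With pseudogenes added to the parents the median of the large subunit was 2.43 TPM and the ratio 3.06, and with subunits by structure the ratio was 3.66. The SD of log2(TPM + 1) over the members, 3.43 in the large and 2.89 in the small subunit, became 4.56 and 4.03 with a pseudocount of 0.1, and 3.15 and 2.21 without members under 1 TPM.

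The difference in median CPM between members with a single and with a shared 3′ end was 80.2. It was 45.2 and 161 with windows of 100 and 500 bases, 208 for windows wholly unique against none, and 47.8 in TPM, with the same direction in all. The median log2 ratio of replicate 3 was -0.81, and it was -0.28 in TPM without the mitochondrial genome and -0.50 in CPM. The alternatives in the rest of this paragraph were chosen after seeing the data. Over members with a single 3′ end the medians were 90.3 and 34.3 TPM and the ratio 3.91, so the order of the subunit medians turned. Without MRPL41 the ratio was 2.19. With bases under exons of the other strand counted as shared the difference in median CPM was 118, and without members of 1 listed transcript 28.1. On nuclear totals the median log2 ratio was -0.18 for replicate 3, 0.063 for replicate 1 and 0.13 for replicate 2, each against the mean of the others.

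Leaving out each replicate in turn gave 22 to 25 large and 19 to 20 small subunit members expressed, 13 to 14 and 10 to 11 in the high category, and 29 to 30 members with at most 3 counts. The medians ran from 0.654 to 1.22 TPM and from 8.27 to 12.7 TPM, the shares from 0.592% to 0.771% and from 0.172% to 0.232%, and the ratio from 3.32 to 3.45. The SDs ran from 3.37 to 3.52 and from 2.80 to 2.99, and the difference in median CPM from 73.0 to 91.8. Of the promoter shares, GC box (46.4%), TATAAA (0%) and 4 tracts of at least 2 (81.2%) and at least 3 bases (8.70%) moved in the window from 100 bases before the start site. Counts under 4 in a library cannot be told from 0.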
